A study of Mus musculus with 3 samples.

Results

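The histone variant genes that are transcribed outside the replication-dependent histone clusters were followed through 3 chromatin profiles of mouse embryonic stem cells (mESC). The 10 genes were taken by their GENCODE M21 symbols: H2afz and H2afv, which encode the H2A.Z proteins, H2afx for H2A.X, H2afy and H2afy2 for the macroH2A proteins, H3f3a and H3f3b for H3.3, H1f0 for the linker histone H1.0, H1fx for H1.X, and Cenpa for the centromeric H3. They were 10 of the 21938 protein-coding genes of the annotation, and the rule that names them uses no measured value. The cells were F123, a male line that is an F1 hybrid of the S129/Jae and Cast strains, kept in LIF and serum replacement on inactivated feeder fibroblasts and passaged at least 2 times on gelatin without feeders before harvest. Chromatin immunoprecipitation sequencing (ChIP-seq) was carried out with antibodies against H3K27me3, against RNA polymerase II phosphorylated at serine 5 (Pol2-S5p) and against RNA polymerase II phosphorylated at serine 7 (Pol2-S7p). Each mark had 1 library of the same untreated cells, so the values below have no replicate check, no test between samples was possible, and all shares describe these 3 libraries.

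Replication-dependent histone genes are transcribed in S phase, and their messages end in a stem-loop in place of a poly(A) tail. Most variant histones are made outside S phase as well, largely from polyadenylated messages, and variants enter chromatin through chaperones of their own, H3.3 at active genes and at heterochromatin, H2A.Z around start sites, macroH2A on silent chromatin, and CENP-A at centromeres. H3K27me3 is deposited by Polycomb repressive complex 2. In stem cells Pol2-S5p is found at active promoters and also at Polycomb-bound ones, whereas Pol2-S7p marks genes that make RNA. After the scheme of the study, a promoter is called here by the regions that touch a window of 2 kb centred on its start: Active with both polymerase marks and no H3K27me3, Polycomb-Active (PRCa) with all 3 marks, PRC repressed (PRCr) with H3K27me3 and Pol2-S5p alone, and Inactive with none. Where a gene has several annotated starts, the one with the longest Pol2-S5p cover in its window is used and is called the chosen start.

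The lists held 17342 H3K27me3 regions with a median width of 3400 bp, 29222 Pol2-S5p regions with a median of 2000 bp and 22320 Pol2-S7p regions with a median of 2200 bp. Regions over 10 kb made up 25.7% of the H3K27me3 list, 22.9% of the Pol2-S5p list and 25.6% of the Pol2-S7p list. The files held no read counts, so the depth behind a region was not used here. The score that the peak finder gave each region has no stated unit and is used only as a rank within its own list. All 8 stem cell marker genes examined carried both polymerase marks (Klf4 and Sox2 with H3K27me3 as well), and none of 6 feeder fibroblast marker genes did. Thy1 and Twist2 were PRCr, Col1a1 and Col1a2 had H3K27me3 only, and Dcn and Postn were Inactive. The lists merge both parental alleles and all cells, so H3K27me3 and polymerase on the same chromosomes cannot be told apart from the marks on different alleles or in different cells.

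All 10 histone variant genes had polymerase at the promoter. Pol2-S5p was called at 10 of 10 variant promoters, against 69.9% of all protein-coding promoters, and Pol2-S7p at 10 of 10, against 60.4%. H3K27me3 was called at 6 of 10, against 37.6% of all protein-coding promoters (95% interval 37.0 to 38.2). Because every variant promoter had polymerase, the nearer comparison is with the 13119 protein-coding promoters that carried both polymerase marks, of which 39.7% also had H3K27me3. The variant genes were therefore split between PRCa (H2afz, H2afy, H2afy2, H3f3a, H1f0 and H1fx), 6 of 10 against 23.7% of all protein-coding genes, and Active (H2afv, H2afx, H3f3b and Cenpa), 4 of 10 against 36.1%. None was PRCr or Inactive. With 10 genes and 1 library per mark, these shares are a description and no difference from the background was tested. Both H2A.Z genes and both H3.3 genes fell on different sides of the split, whereas both macroH2A genes and both linker histone genes were PRCa. Each gene had the same state at every one of its annotated starts. No variant promoter window overlapped that of another coding gene, which also held for 89.3% of all protein-coding genes.

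**Figure D1:**
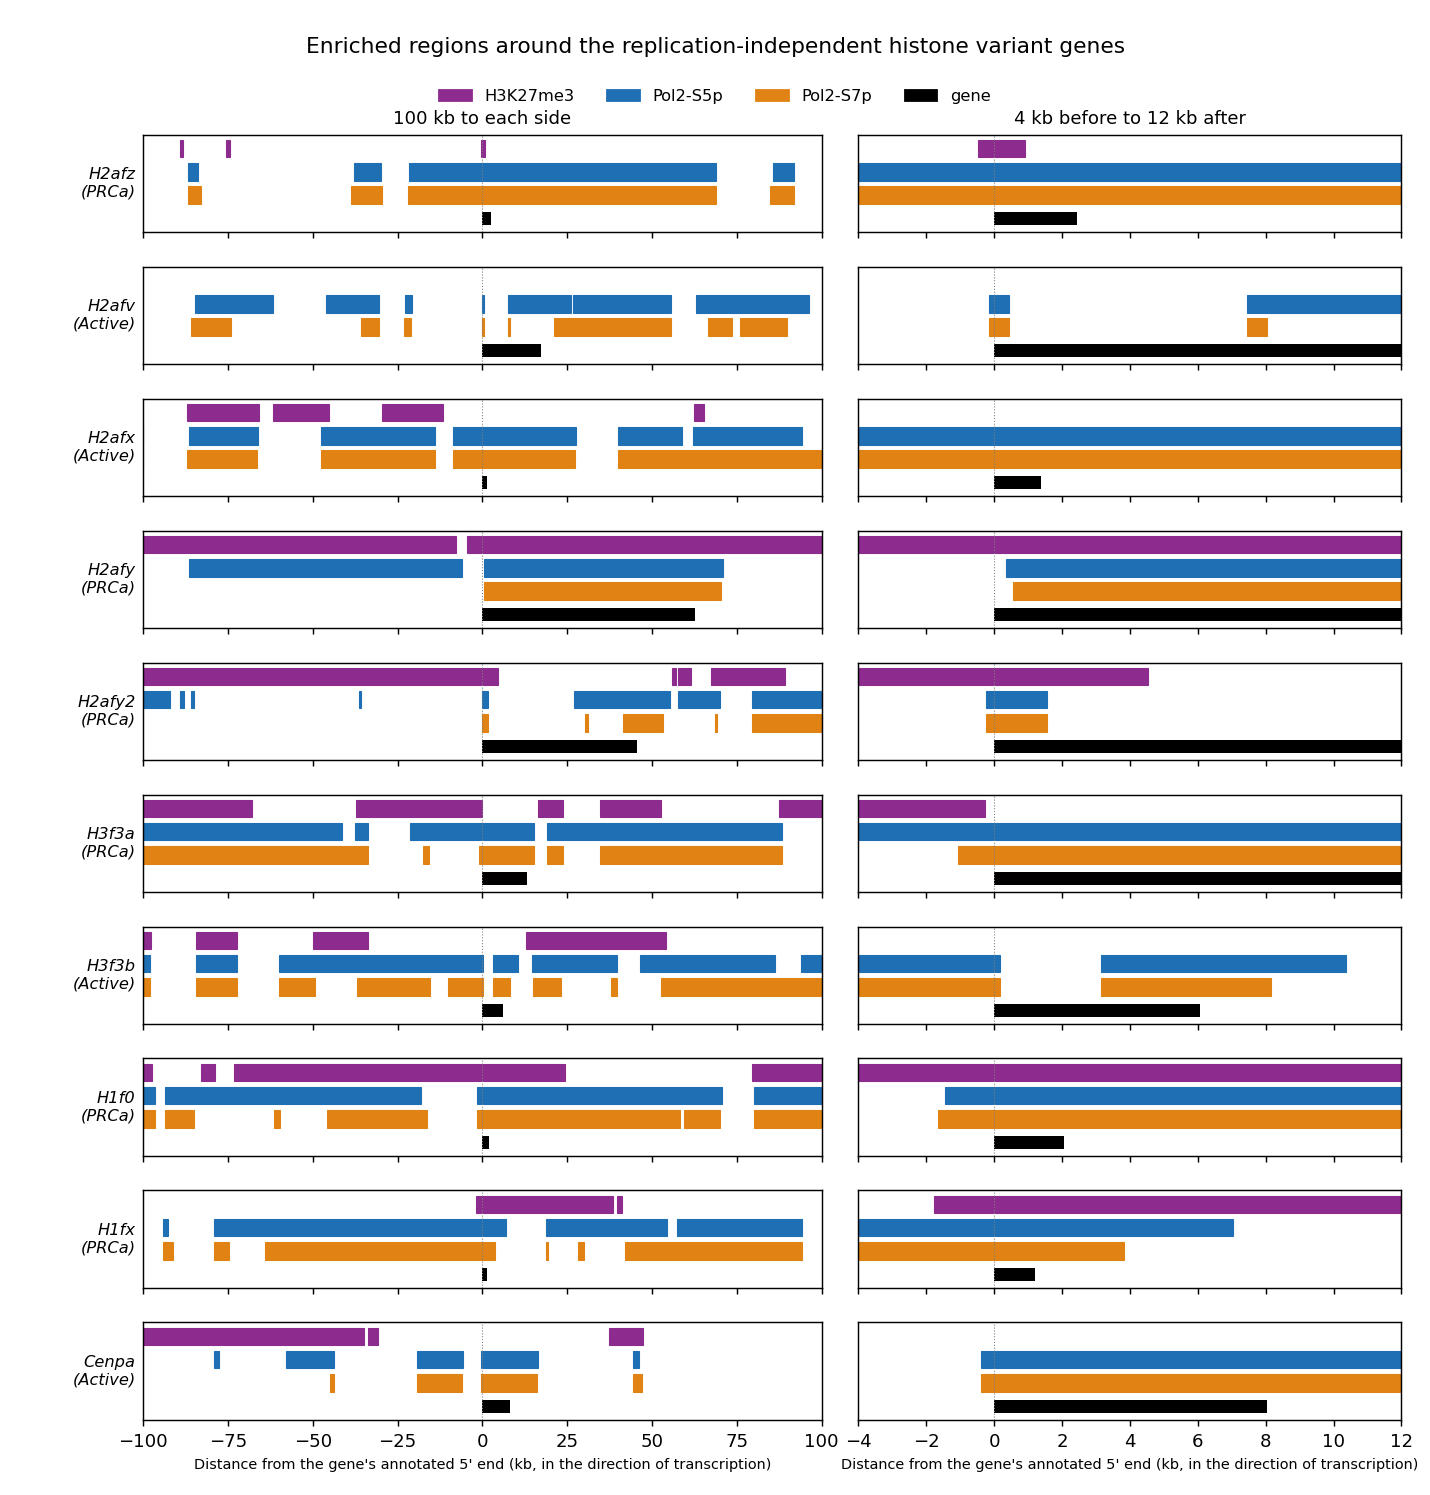
Enriched regions of H3K27me3, Pol2-S5p and Pol2-S7p around the 10 histone variant genes, in kb from the annotated 5′ end of each gene in the direction of transcription. The left panels show 100 kb to each side, the right panels 4 kb before to 12 kb after, and the black bar is the gene record. H3K27me3 covered the start of H2afz as a region of 1400 bp inside polymerase regions of 90600 bp, and it ended before the start of H3f3a.

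The H2A.Z genes encode almost identical proteins, and their promoters differed in the presence of H3K27me3 and in the extent of the polymerase marks. H2afz (chr3:137864487-137866922, plus strand, 2436 bp, 7 transcripts) was PRCa. Its H3K27me3 region was 1400 bp wide and ran from position -487 to position 912, where positions count bp from the annotated 5′ end of the gene and are negative upstream. The region covered 37.5% of the gene record, and its score of 5.07 was higher than that of 13.2% of the H3K27me3 list. The Pol2-S5p and the Pol2-S7p region at H2afz were each 90600 bp wide, scored 8.46 and 10.4, covered the whole gene and also held the promoters of Dnajb14 and Lamtor3. With limits drawn around these values, 42 of 5208 PRCa promoters (0.806%) had an H3K27me3 region of at most 2 kb inside polymerase regions of at least 50 kb. The limits were fitted to H2afz, so the low share is no measure of how unusual the gene is. H2afv (chr11:6427229-6444443, minus strand, 17215 bp) was Active, and the nearest H3K27me3 region lay 152757 bp from its start. Its Pol2-S5p and Pol2-S7p regions at the promoter had the same ends, from position -156 to position 443, and were only 600 bp wide. Their scores of 61.0 and 70.5 were higher than those of 98.0% and 98.9% of their lists. A further Pol2-S5p region began at position 7444 and ran past the gene end, so Pol2-S5p covered 59.3% of H2afv, whereas Pol2-S7p covered 6.06%.

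The promoter sequences of this pair are shown because a narrow region of enrichment lay over each start, H3K27me3 at H2afz and polymerase at H2afv. They run from 250 bases before to 50 bases after the RefSeq start (GRCm38.p6, 5′ to 3′ on the strand of the gene, chr3:137864237-137864536 on the plus strand for H2afz and chr11:6444394-6444693 on the minus strand for H2afv), and capitals mark each CpG. RefSeq lists the genes as H2az1 and H2az2.
H2afz: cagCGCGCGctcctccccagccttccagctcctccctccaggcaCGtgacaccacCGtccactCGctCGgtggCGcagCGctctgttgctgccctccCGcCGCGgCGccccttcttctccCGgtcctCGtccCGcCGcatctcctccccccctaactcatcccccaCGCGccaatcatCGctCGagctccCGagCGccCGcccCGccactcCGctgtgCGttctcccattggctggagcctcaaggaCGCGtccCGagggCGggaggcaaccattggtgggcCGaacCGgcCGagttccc
H2afv: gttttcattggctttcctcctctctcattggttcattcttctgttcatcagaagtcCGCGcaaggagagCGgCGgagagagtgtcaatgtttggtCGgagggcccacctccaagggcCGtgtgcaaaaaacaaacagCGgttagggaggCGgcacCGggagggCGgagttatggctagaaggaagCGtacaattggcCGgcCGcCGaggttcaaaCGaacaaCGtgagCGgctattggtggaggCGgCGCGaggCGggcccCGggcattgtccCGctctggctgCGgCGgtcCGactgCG
The H2afz stretch held 34 CpGs and the H2afv stretch 27, against a median of 13 over 21263 protein-coding promoters of the same length. The whole H2afz stretch lay inside its H3K27me3 region. The H2afv stretch did not lie wholly inside its polymerase regions, since these began at position -156 and the bases upstream of it fell outside. The H3K27me3 region at H2afz had an observed to expected CpG ratio of 0.955 and a GC content of 70.8%, and the polymerase regions at the H2afv start had a ratio of 1.04 and a GC content of 69.3%.

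The H3.3 genes encode the same protein and were also split. H3f3a (chr1:180800832-180813943, minus strand, 13112 bp, 7 transcripts) was PRCa by the edge of a neighbouring region. The H3K27me3 region was 37000 bp wide, lay from position -37256 to position -257 and covered none of the gene record. It took up 432 bp of the 2 kb window around the chosen start. Under 500 bp of H3K27me3 in the window, a limit drawn just above that value, was found at 96 of 5208 PRCa promoters (1.84%). Pol2-S5p at H3f3a lay over the whole gene in a region of 36600 bp with a score of 9.65, which extended to position -21256. Pol2-S7p also covered the whole gene, in a region of 16200 bp with a score of 20.6, but began at position -1056. H3f3b (chr11:116021912-116027962, minus strand, 6051 bp, 4 starts) was Active, with the nearest H3K27me3 region 9474 bp from the chosen start. Its Pol2-S7p region of 5000 bp scored 88.3, higher than 99.6% of the Pol2-S7p list and the highest score of any mark at the 10 genes. The Pol2-S5p region of 7200 bp scored 42.2, higher than 91.9% of its list. Both began at position 3163, upstream of 3 of the 4 annotated starts. The most upstream H3f3b start lay in the ends of other regions (60200 bp of Pol2-S5p and 10200 bp of Pol2-S7p). The stretch between, after position 162 and before position 3163, had no region, so each polymerase mark covered 50.4% of the record.

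The promoters of the H3.3 pair are shown in the same way, since genes for the same protein differed here in state and in motifs (chr1:180813556-180813855 for H3f3a and chr11:116024455-116024754 for H3f3b, both on the minus strand, capitals for CpG).
H3f3a: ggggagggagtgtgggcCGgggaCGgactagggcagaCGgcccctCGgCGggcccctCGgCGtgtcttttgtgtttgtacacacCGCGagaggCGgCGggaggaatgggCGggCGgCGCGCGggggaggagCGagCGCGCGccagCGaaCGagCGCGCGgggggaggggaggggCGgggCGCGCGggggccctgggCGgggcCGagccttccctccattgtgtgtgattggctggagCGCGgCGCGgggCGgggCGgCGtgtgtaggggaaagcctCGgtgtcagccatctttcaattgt
H3f3b: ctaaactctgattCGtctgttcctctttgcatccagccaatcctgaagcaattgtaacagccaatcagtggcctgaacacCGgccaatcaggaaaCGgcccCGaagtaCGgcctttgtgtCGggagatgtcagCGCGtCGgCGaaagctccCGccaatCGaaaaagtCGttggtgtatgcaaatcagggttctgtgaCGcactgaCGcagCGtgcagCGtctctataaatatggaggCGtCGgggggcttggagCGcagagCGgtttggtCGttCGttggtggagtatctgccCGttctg
The H3f3a stretch had 39 CpGs and the H3f3b stretch 24. The GC box (GGGCGG, searched on both strands) was found 6 times in H3f3a and not in H3f3b. The CCAAT box (CCAAT, both strands) was found 4 times in H3f3b, all on the strand of the gene, with first bases at -214, -190, -167 and -97 from the RefSeq start, and 1 time in H3f3a. H3f3b was the only one of the 9 histone variant promoters matched in RefSeq with a TATA box (TATAAA, both strands), at -27, against 12.6% of all protein-coding promoters. The H3f3b stretch lay entirely inside its polymerase regions, and the H3f3a stretch entirely outside the H3K27me3 region.

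The macroH2A genes, whose proteins carry a large macro domain behind the histone fold, had the widest H3K27me3 regions of the 10 genes. H2afy (chr13:56073619-56136361, minus strand, 62743 bp, 8 transcripts) lay entirely within an H3K27me3 region of 108600 bp (score 5.62), which began at position -4638 and ended at position 103961. A second H3K27me3 region, 337400 bp wide, ended at position -7639. Pol2-S5p covered 99.4% of the gene in a region of 70600 bp (score 8.52) and Pol2-S7p 99.1% in a region of 69800 bp (score 6.78). These began at position 362 and position 562, downstream of the annotated 5′ end. The transcripts with the fullest Pol2-S5p cover start inside the gene, and all 7 starts were PRCa. H2afy2 (chr10:61738665-61784147, minus strand, 45483 bp, 1 transcript) had an H3K27me3 region of 126800 bp (score 6.79) that came from upstream and ended at position 4547, covering 10.0% of the gene. Its promoter polymerase regions had the same ends for both marks, position -252 to position 1547, a width of 1800 bp, and scores of 36.7 for Pol2-S5p and 31.0 for Pol2-S7p. Further downstream, Pol2-S5p had a region of 28200 bp that began at position 26948 and ran past the gene end. Pol2-S7p had a region of 1000 bp inside the gene and one of 11600 bp that also ran past its end. The cover of the record came to 44.2% for Pol2-S5p and 14.3% for Pol2-S7p. H2afy thus had all 3 marks over nearly its whole length, and H2afy2 had them together at its promoter. All 3 scores at H2afy ranked low. They were higher than those of 19.6% of the H3K27me3, 36.2% of the Pol2-S5p and 14.7% of the Pol2-S7p list.

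H2afx and Cenpa, which encode the variant phosphorylated at DNA breaks and the variant that defines centromeres, were Active and covered from end to end by both polymerase marks. H2afx (chr9:44334694-44336077, plus strand, 1384 bp, 1 transcript) lay in regions of 36200 bp of Pol2-S5p (score 23.1) and 36000 bp of Pol2-S7p (score 29.9), in which the promoters of Dpagt1 and Vps11 also lay. An H3K27me3 region of 17800 bp ended at position -11695 and did not reach the gene. Cenpa (chr5:30666777-30674830, plus strand, 8054 bp, 10 starts) had a Pol2-S5p region of 16800 bp (score 14.2) and a Pol2-S7p region of 16600 bp (score 18.5), both beginning at position -377, with no other coding promoter in them. An H3K27me3 region of 3000 bp ended at position -30778.

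The linker histone genes H1f0 and H1fx, which have no introns in the annotation, were covered over their whole length by all 3 marks. At H1f0 (chr15:79028450-79030504, plus strand, 2055 bp), the H3K27me3 region was 97400 bp wide and its score of 9.96 was higher than that of 64.0% of the list, the only one of the 6 H3K27me3 regions above the list median of 8.23. This region also held the promoters of Gcat, Triobp and Galr3. The Pol2-S5p region of 72200 bp (score 12.4) and the Pol2-S7p region of 60000 bp (score 13.4) began at position -1450 and position -1650 and also held the promoters of Gcat, Eif3l, Ankrd54 and Galr3. At H1fx (chr6:87980421-87981637, minus strand, 1217 bp), the H3K27me3 region was 40200 bp wide (score 5.46) and began at position -1762, whereas the Pol2-S5p region of 86200 bp (score 9.65) and the Pol2-S7p region of 68000 bp (score 11.4) extended mostly upstream, over the promoter of Rab7, and ended at position 7037 and position 3837. Polymerase regions also lay over more distant parts of both H3K27me3 regions. At H1f0, a Pol2-S5p region of 75600 bp ended at position -18051 and a Pol2-S7p region of 29400 bp at position -16451. At H1fx, a Pol2-S5p region of 35600 bp began at position 18838.

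**Figure D2:**
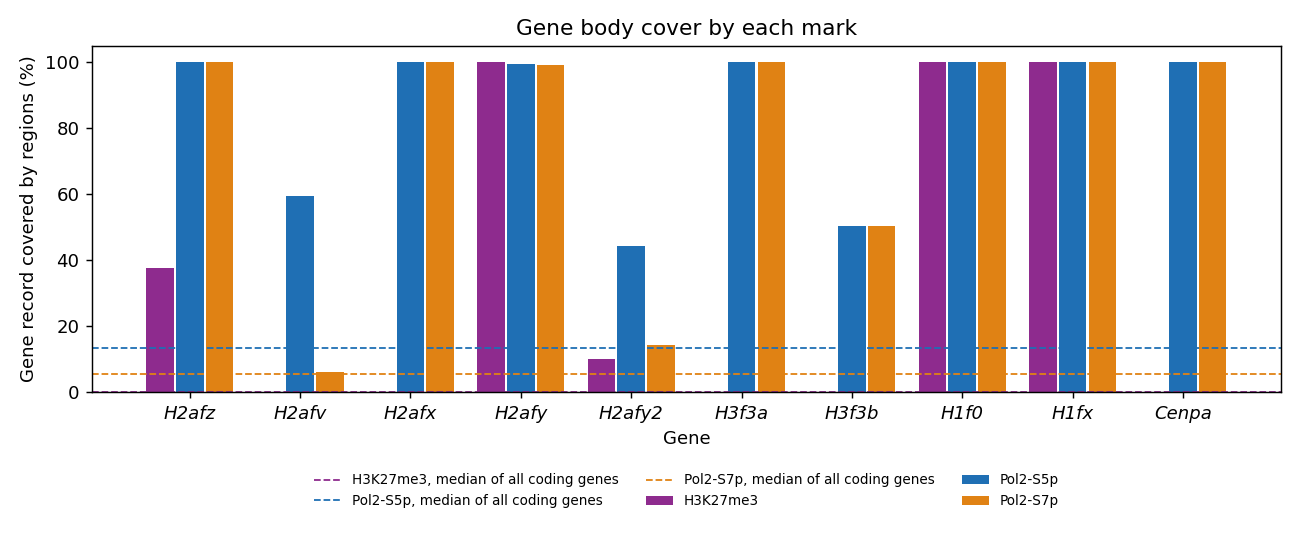
Percent of each gene record covered by regions of H3K27me3, Pol2-S5p and Pol2-S7p at the 10 histone variant genes, with dashed lines for the medians over all protein-coding genes (0 for H3K27me3, 13.2% for Pol2-S5p and 5.37% for Pol2-S7p). Pol2-S5p covered at least 44.2% of each gene, and H3K27me3 covered H2afy, H1f0 and H1fx completely.

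Over the gene body, Pol2-S5p covered a median of 100% of the 10 records, from 44.2% at H2afy2 upwards, against a median of 13.2% over all protein-coding genes and 82.9% over those with both polymerase marks. Pol2-S7p covered a median of 100% as well, from 6.06% at H2afv upwards, against 5.37% and 82.3%. Both polymerase marks covered at least 99% of the record at 7 of 10 variant genes, against 21.5% of protein-coding genes. The 3 exceptions were H2afv, H2afy2 and H3f3b. That background includes genes without polymerase. Among the 7, H2afz, H2afx, H1f0 and H1fx are only 1217 to 2436 bp long and lay in regions far wider than the gene, and gene length was not matched. H3K27me3 covered a median of 5.00% of the variant genes, against 0 for all protein-coding genes. In the plot of cover by gene, H2afz, H2afy2 and H3f3a carried the mark at the promoter with 37.5%, 10.0% and 0 of the record covered, in that order.

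**Figure D3:**
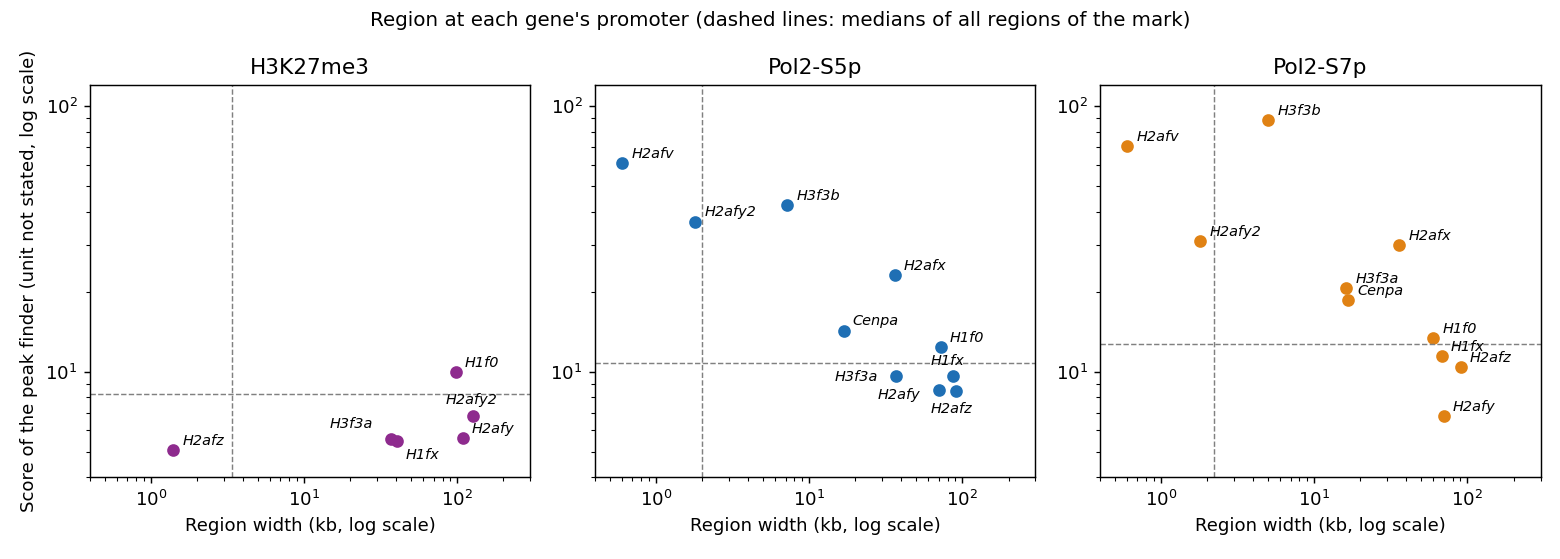
Width (kb, log scale) and score (log scale, unit not stated) of the region over the promoter of each histone variant gene, 1 panel per mark, with dashed lines at the medians of all regions of the list. Of the 6 H3K27me3 regions, 5 lay to the right of the median width and 5 below the median score, and the 3 narrowest polymerase regions of each mark had the 3 highest scores.

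The variant genes differed widely in the width of their regions. The Pol2-S5p regions at variant promoters had a median width of 36400 bp, against 17600 bp for all marked protein-coding promoters and 20800 bp for those with both polymerase marks. The Pol2-S7p regions had a median of 26300 bp, against 20600 bp in either set. The 6 H3K27me3 regions had a median width of 68800 bp, against 16800 bp, and a median score of 5.61, against 9.64. Regions over 10 kb were found at 5 of the 6 PRCa variant promoters for H3K27me3, against 56.5% of all PRCa promoters, and at 7 of 10 variant promoters for Pol2-S5p, against 60.6% of promoters with both polymerase marks. The median score was 13.3 for Pol2-S5p, against 12.3 for all marked protein-coding promoters and the same 13.3 for those with both polymerase marks. For Pol2-S7p it was 19.6, against 13.9 and 14.0. As the plot of width against score shows, H2afv, H2afy2 and H3f3b combined the narrowest polymerase regions with the highest scores.

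Counted together with the wide regions at the promoters themselves, the surroundings of the variant genes were rich in regions. The background here is all protein-coding genes, with or without polymerase, and not the nearer set with both polymerase marks. In the 200 kb around the chosen start, a median of 65.7% was covered by Pol2-S5p, from 23.7% at Cenpa to 85.7% at H1f0, against 20.2% for all protein-coding genes. The median for Pol2-S7p was 57.6%, against 16.7%. For H3K27me3 it was 35.6%, against 8.18%, and it ranged from 0 around H2afv to 87.7% around H2afy. The number of coding starts within 100 kb was similar, with a median of 3.5 against 3, and ranged from 1 at H2afy to 14 at H2afx. An antisense transcript of the opposite strand started close to 5 of the genes. Between the closest annotated starts of the 2 genes, the distance was 113 bp for H2afz (Gm43403), 308 bp for H2afx (Gm48853), 144 bp for H3f3a (H3f3aos), 162 bp for H1f0 (Gm49544) and 46 bp for H1fx (Gm5577). The share of all protein-coding genes with such a start was not counted, so this is a description of single genes. ChIP-seq holds no strand, so polymerase of these transcripts and of the histone genes cannot be told apart.

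In the base composition of the promoters, PRCa and Active variant genes overlapped. The observed to expected CpG ratio of the 2 kb window was highest at H2afz (0.933) and H3f3a (0.919), which exceeded 98.8% and 98.4% of protein-coding genes. It was 0.843 at H2afx, 0.831 at H2afv, 0.790 at both H3f3b and H2afy2, 0.779 at H1fx and 0.635 at H1f0. The windows of H2afy (0.273), Cenpa (0.137) and H3f3b were centred on starts well inside the gene record, and at the annotated 5′ end the ratio was 0.544 for H2afy, 0.601 for Cenpa and 0.179 for H3f3b. The median was 0.784 for the 6 PRCa genes and 0.811 for the 4 Active genes, whereas the medians of all protein-coding genes in these states were 0.598 and 0.558. With windows at the annotated 5′ ends the order of the variant genes turned, with medians of 0.784 for PRCa and 0.716 for Active.

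RefSeq promoters were matched for 9 of the 10 genes (not for H2afx), and they held from 10 CpGs at Cenpa to 40 at H1fx in 300 bases. They were not always centred near the chosen start. The RefSeq start lay 155 bp from it at H1fx, 238 bp at H1f0 and 283 bp at H2afy2. The distance was 5069 bp at Cenpa and 51029 bp at H2afy. The H1f0 stretch (chr15:79027962-79028261) ended before the annotated start of the gene at 79028450, so bases next to that start were not searched. The CCAAT box was present in 6 of 9, against 38.2% of all protein-coding promoters, and the GC box in 7 of 9, against 46.2%. The CHR element (TTTGAA, both strands), known from genes that peak late in the cell cycle, was present in H2afv and Cenpa, against 16.0% of promoters. The H1 box (AAACACA, both strands), a motif known from H1 promoters, was present in H3f3a, against 6.15% of promoters. It was not found in the stretches matched to H1f0 and H1fx. A match is only a run of letters in this window. The histone 3′ stem-loop was searched in the exons and the following 200 bases. In a strict form it was found in none of the 10 variant genes, against 51 of 67 replication-dependent histone genes. In a broader form, which allows more bases at the variable positions, it was found in H2afx alone of the 10 genes, centred at -830 from the gene end, against 62 of 67 replication-dependent genes.

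The protein-coding genes nearest to a PRCa variant gene were sought by the cover of window and body in all 3 marks, with 6 values per gene. Likeness is the Euclidean distance between those values as shares, and it says nothing of function. For H3f3a, Mrpl34 (distance 0.005), Myo19 (0.021) and Nelfb (0.025) also had between 381 and 441 bp of H3K27me3 in the window and nearly none in the body. For H2afz the nearest were Cd24a (0.049), Romo1 (0.056) and Ppm1m (0.056). H2afy was nearest to Fam83h, Sept5 and Slc6a9 (each 0.006). H2afy2 stood further from other genes, with Gsdme (0.156), Slc30a10 (0.160) and Rad18 (0.206). H1f0 and H1fx, which were covered by all marks throughout, shared that pattern exactly with 663 genes.

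**Figure D4:**
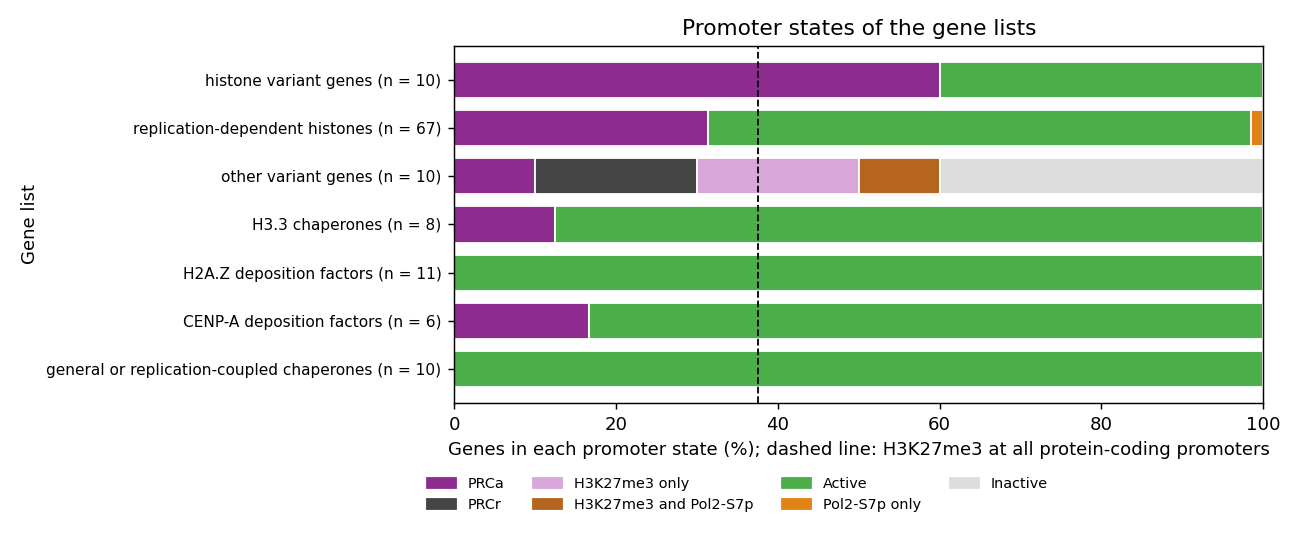
Percent of genes in each promoter state for the 10 histone variant genes and 6 related gene lists, with the number of genes beside each list and a dashed line at 37.6%, the share of all protein-coding promoters with H3K27me3. The variant genes had 6 PRCa and 4 Active promoters, the replication-dependent histones 21 PRCa and 45 Active promoters, and all 11 H2A.Z deposition factors were Active.

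Set beside the replication-dependent histone genes, the variant genes had polymerase as often but lay in wider regions. H3K27me3 was called at 6 of 10 variant promoters and at 21 of 67 replication-dependent promoters (31.3%), and both polymerase marks at 10 of 10 and 66 of 67. The exception was Hist1h1d, which had Pol2-S7p only. The H3K27me3 region was over 10 kb wide at 5 of the 6 marked variant promoters, with a median of 68800 bp, and at 6 of the 21 marked replication-dependent promoters, with a median of 3400 bp. The Pol2-S5p region had a median width of 36400 bp at variant genes and 4800 bp at replication-dependent genes, and the median gene length was 7052.5 bp and 539 bp. The replication-dependent PRCa genes with the widest Pol2-S5p regions were Hist4h4 (25400 bp), Hist2h2aa2 and Hist2h3c2 (17600 bp each), and the Active ones Hist2h2aa1, Hist2h3c1 (17600 bp each) and Hist1h2ao (12000 bp, a width also found at Hist1h2bq and Hist1h4m, with ties taken by symbol). Many replication-dependent genes lie in clusters and have near-identical copies, so their regions are not independent and the placing of reads among copies is uncertain.

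Among the deposition factors and chaperones, H3K27me3 was called at the promoters of Dek and Hjurp alone. Every gene of these lists carried both polymerase marks, and 39.7% of all protein-coding promoters with both marks had H3K27me3. With 6 to 11 genes per list, no difference from that share was tested. All 11 H2A.Z deposition factors were Active, among them Ruvbl1, Vps72 and Ruvbl2 in Pol2-S5p regions of 333600, 305600 and 152200 bp. Of 8 H3.3 chaperones, 7 were Active, including Hira (89400 bp of Pol2-S5p), Atrx (81000 bp) and Daxx (42400 bp), and Dek was PRCa through an H3K27me3 region of 3800 bp (score 7.04). Of 6 CENP-A deposition factors, 5 were Active, with the widest Pol2-S5p regions at Mis18a (99400 bp), Cenpn (53200 bp) and Oip5 (37400 bp). Hjurp, the CENP-A chaperone, was PRCa with an H3K27me3 region of 103400 bp (score 10.8), whereas Cenpa itself had none. All 10 general or replication-coupled chaperones were Active, with Supt16 (160800 bp), Chaf1b (148600 bp) and Chaf1a (102200 bp) in the widest Pol2-S5p regions.

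The other variant genes, mostly known from germ cells, seldom had both polymerase marks. Of 10 such genes, only H2afj was PRCa, in an H3K27me3 region of 28000 bp and a Pol2-S5p region of 25400 bp that it shared with Hist4h4. H1fnt and H2al1a were PRCr, H1foo and Hils1 had H3K27me3 only, H2bfm had H3K27me3 and Pol2-S7p, and H2afb1, H2afb2, H2afb3 and H2al2a were Inactive. Both polymerase marks were thus present at 10 of 10 replication-independent genes followed here and at 1 of 10 of the others. Over all protein-coding genes, 13119 of 21938 promoters had both.

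**Figure D5:**
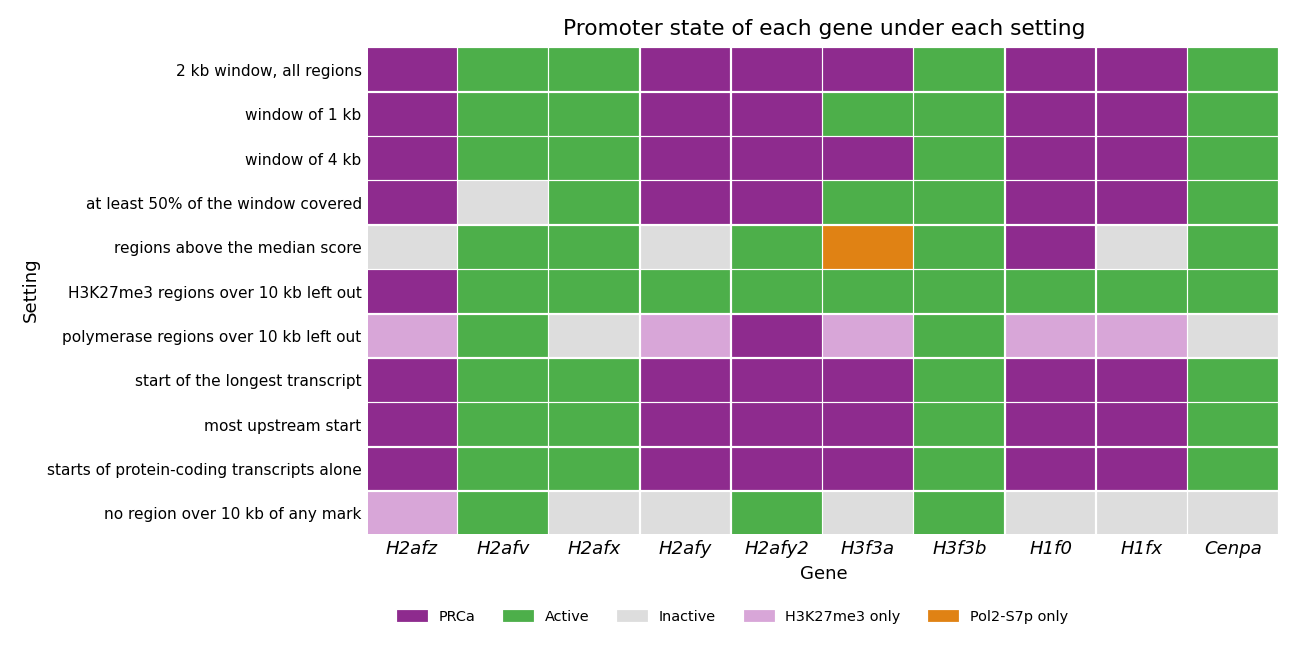
Promoter state of each of the 10 histone variant genes (columns) under the 2 kb window with all regions and under 10 other settings (lines down the page). H2afv, H2afx, H3f3b and Cenpa had no state with H3K27me3 under any of these settings, and H2afz was the only PRCa gene left when H3K27me3 regions over 10 kb were left out.

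The PRCa calls rested on wide regions with low scores, and H2afz and H1f0 were the exceptions in opposite ways. With H3K27me3 regions over 10 kb left out, H3K27me3 was called at 1 of 10 variant promoters, that of H2afz. The share over all protein-coding promoters fell as well, from 37.6% to 15.7%. The other 9 genes were Active, against 49.5% of protein-coding genes under this setting. When each list was limited to scores above its median, H3K27me3 was again called at 1 of 10, that of H1f0, against 24.7% of protein-coding promoters. Pol2-S5p was called at 6 of 10 and Pol2-S7p at 7 of 10. H2afz, H2afy and H1fx then had no region at the promoter. With polymerase regions over 10 kb left out, Pol2-S5p and Pol2-S7p were each called at 3 of 10, H2afv, H2afy2 and H3f3b. The states with both polymerase marks became rarer over all protein-coding genes too. PRCa fell from 23.7% to 10.6% and Active from 36.1% to 9.88%. The share of protein-coding promoters with each polymerase mark was not counted under this limit or the score limit. H3f3a was Active with a window of 1 kb or when a mark had to cover at least 50% of the window, and under that rule of 50% the 600 bp regions of H2afv no longer counted. The state of all 10 genes was the same with a window of 4 kb, the start of the longest transcript or the most upstream start. The 4 Active genes carried no H3K27me3 under any of the settings in the plot of states by setting.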

How the data were processed

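Enriched regions of H3K27me3, Pol2-S5p and Pol2-S7p in F123 cells were used, with 1 library per mark. The authors aligned single-end reads (75 bp, per the labels) with Bowtie2 2.3.4.3 to a version of mm10 in which strain variants were masked. They then ran the Bayesian change-point (BCP) peak finder on each mark at default settings. How reads with several equal matches were placed is not given in the sources used here beyond the aligner's defaults. Library depth was not used here. The deposited tables give the position, the width in bp, in steps of 200 bp, and a score of unstated unit for each region.

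Genes were taken from GENCODE M21 on GRCm38 (mm10), and sequences from RefSeq (GRCm38.p6) of the same assembly. Coordinates count from 1. A promoter held a mark if its 2 kb window shared at least 1 bp with a region. Of several starts, that with the longest Pol2-S5p cover was chosen, then Pol2-S7p cover, then the longest transcript. The study also used a read threshold and excluded overlapping genes, and neither step was applied. The interval given for a share over protein-coding genes is exact (Clopper-Pearson, 95%) and reflects counting error alone. No test was run, since no mark had replicates.

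The genes, the related lists and the settings were chosen with earlier results of these data known. Named were all 10 variant genes, other genes with promoters in their regions, the 3 genes nearest in cover to each variant gene with H3K27me3, and of each related list the genes that were not Active (up to 3 per state in long lists) and the 3 Active genes with the widest Pol2-S5p region. Genes tied at distance 0 were counted, not named. A gene that this rule gives is not reported here. H3f3c and Macroh2a, listed among the other variants, were not in the annotation. Alternatives changed the window, the overlap, the score, the width and the start, and those with no region over 10 kb of any mark and with starts of protein-coding transcripts alone were chosen after seeing the data, as were the base composition at annotated 5′ ends and the broader form of the stem-loop. The limits of 2 kb and 50 kb for regions like those at H2afz, and of 500 bp for H3f3a, were set with the values of these genes known. Computation used Python 3.11.15, NumPy 2.4.6, SciPy 1.17.1 and Matplotlib 3.10.9, and the functions were tested on simulated regions.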

Additional observations from a re-analysis of the deposited data

How the results depend on the processing

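Each mark had 1 library and the files hold no reads, so library depth, peak calling and replicate spread limit every value and could not be examined. No paired analysis was possible because each mark had 1 library. Of 167 comparisons with an alternative, 116 stayed within the limits set (for a count, within 1.5 times) and 51 moved, and of 100 states of single genes 28 changed. The main counts were 6 of 10 genes with H3K27me3, 10 with Pol2-S5p, 10 with Pol2-S7p, 6 PRCa and 4 Active. With regions above the median score alone, H3K27me3 was at 1 of 10 genes, against 24.7% of protein-coding genes. PRCa was at 1, against 8.58%, and Pol2-S5p at 6. The median body cover was then 0 for H3K27me3, 26.9% for Pol2-S5p and 28.2% for Pol2-S7p. The median region width was 12000 bp for Pol2-S5p (6 genes) and 16200 bp for Pol2-S7p (7 genes). With H3K27me3 regions over 10 kb left out, H3K27me3 was at 1 gene, against 15.7% of protein-coding genes. Then 1 gene was PRCa and 9 were Active, against 10.3% and 49.5%. With polymerase regions over 10 kb left out, Pol2-S5p was at 3 and Pol2-S7p at 3 genes. Then 1 gene was PRCa and 2 were Active, against 10.6% and 9.88% of protein-coding genes. With no region over 10 kb of any mark, chosen after seeing the data, H3K27me3 was at 1, Pol2-S5p at 3 and Pol2-S7p at 3 genes, with 0 PRCa. The shares of protein-coding genes were 16.8% for H3K27me3 and 6.69% for PRCa. Under these limits on score or width, the share of protein-coding genes with each polymerase mark was not counted. Counted from 1 kb after the start, the median body cover of H3K27me3 was 0. Over the 19599 protein-coding genes whose promoter windows overlap no other, the background was 67.1% for Pol2-S5p, 56.8% for Pol2-S7p and 32.9% for Active. These changes follow from the regions removed, and whether wide or low-scoring regions are less reliable was not tested. Starts of protein-coding transcripts alone, also chosen after seeing the data, gave the same state for all 10 genes.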
